A study of Mus musculus with 36 samples.

Results

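The regions described here are 1 kb stretches of autosome that were close to unmethylated in wild-type (WT) embryonic mouse brain. A region qualified when at least 5 of its CpGs were covered at least 5 times in each of 4 WT embryos of the 3 ppm folic acid diet, and it was chosen by a pooled methylation level below 10% in those embryos. Of 63512 qualifying regions, 24768 (39.0%) met this rule, 2495 lay between 10% and 30%, and 36249 lay at 30% or above. The level in the 4 choosing embryos is therefore a description, and every test below uses other embryos.

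The study profiled brain DNA of single E11.5 embryos of the congenic 129S6.Cg strain by oxidative bisulfite RRBS, which reads 5-methylcytosine without 5-hydroxymethylcytosine at CpG-rich fragments cut by MspI and TaqI. Embryos were WT, heterozygous (HET) or homozygous (KO) for the Tet1 tm1Koh allele, and dams received 30, 3 or 0.1 ppm folic acid in diets that all also held 1% succinylsulfathiazole. By their labels there were 3, 4 and 2 WT, 5, 3 and 3 HET, and 6, 5 and 5 KO embryos on 30, 3 and 0.1 ppm. Labels also give sex and phenotype, which did not enter the fits. Neural tube defects (NTD) were labelled in KO embryos only. The label inHB, a brain malformation in the study's sample list, occurs in each genotype. All 4 choosing WT embryos were labelled normal. The part of phenotype in differences between genotypes was not tested. HET replicate 2 of 0.1 ppm was left out, so 35 of 36 libraries were compared.

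CpG islands are stretches of dense CpGs that stay free of DNA methylation in most tissues and often hold the start sites of genes. Dense unmethylated CpGs are bound by CXXC-domain proteins, and TET1, which carries such a domain, oxidises 5-methylcytosine as a step towards its removal. Methylation at island promoters is known to go with stable silencing, for example of germline genes in somatic cells.

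Reference sequence of some of these regions is given first, to show what the rule picked out. Some had large KO gains without overlap between KO and HET embryos on each diet. Others were the most deeply covered, or members of the neural, one-carbon and Hox lists used below. Each run is 200 bases of the plus strand of RefSeq GRCm38.p6 (mm10), outside annotated UTRs, and placed to hold as many shared covered CpGs as possible. CpGs are in capitals. Regions carry the name of the gene with the nearest start, which need not be the gene that holds the sequence. Regions taken from the gene lists carry that of the nearest protein-coding start. Gm47110 is a processed pseudogene, and Troap encodes a microtubule-associated protein of dividing cells. The region named for Troap lies 1169 bases from its start.
Gm47110, chr9:67700001-67700200: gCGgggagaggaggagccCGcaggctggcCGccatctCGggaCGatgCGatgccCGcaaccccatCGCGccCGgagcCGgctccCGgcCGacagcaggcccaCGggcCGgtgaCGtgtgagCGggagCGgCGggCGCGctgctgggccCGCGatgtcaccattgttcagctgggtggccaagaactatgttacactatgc
Troap, chr15:99084757-99084956: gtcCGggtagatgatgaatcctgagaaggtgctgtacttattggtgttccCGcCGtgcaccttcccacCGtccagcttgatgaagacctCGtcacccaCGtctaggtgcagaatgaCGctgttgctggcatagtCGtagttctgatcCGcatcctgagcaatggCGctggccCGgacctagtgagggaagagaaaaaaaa
The most deeply covered regions lay at Gm26917, where this build holds a copy of the 45S ribosomal RNA gene. The runs hold 33 and 31 CpGs in 200 bases, more than any other run shown.
Gm26917, chr17:39845690-39845889: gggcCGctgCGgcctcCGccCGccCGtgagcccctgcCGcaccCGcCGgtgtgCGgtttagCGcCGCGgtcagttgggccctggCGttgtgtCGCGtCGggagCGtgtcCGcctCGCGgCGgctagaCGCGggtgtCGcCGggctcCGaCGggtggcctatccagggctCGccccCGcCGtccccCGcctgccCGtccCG
Gm26917, chr17:39844150-39844349: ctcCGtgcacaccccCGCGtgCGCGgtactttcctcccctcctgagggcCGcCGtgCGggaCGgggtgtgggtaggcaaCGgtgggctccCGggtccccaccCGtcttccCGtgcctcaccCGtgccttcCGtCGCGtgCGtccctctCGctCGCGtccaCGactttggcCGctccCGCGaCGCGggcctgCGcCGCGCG
Zic1 encodes a zinc finger factor of the dorsal neural tube, Aldh1l2 a mitochondrial 10-formyltetrahydrofolate dehydrogenase, and Hoxa7 a homeodomain factor of the trunk. The Zic1 run holds 6 CpGs, the Aldh1l2 run 8 and the Hoxa7 run 11, so CpG density alone varied widely among the regions.
Zic1, chr9:91366357-91366556: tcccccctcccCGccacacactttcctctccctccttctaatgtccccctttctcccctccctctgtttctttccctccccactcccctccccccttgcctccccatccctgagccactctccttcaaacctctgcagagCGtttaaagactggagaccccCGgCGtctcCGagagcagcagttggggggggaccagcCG
Aldh1l2, chr10:83533793-83533992: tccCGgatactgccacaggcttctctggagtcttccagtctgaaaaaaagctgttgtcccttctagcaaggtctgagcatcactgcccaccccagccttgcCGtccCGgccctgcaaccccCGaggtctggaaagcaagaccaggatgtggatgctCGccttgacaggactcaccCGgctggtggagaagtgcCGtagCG
Hoxa7, chr6:52220651-52220850: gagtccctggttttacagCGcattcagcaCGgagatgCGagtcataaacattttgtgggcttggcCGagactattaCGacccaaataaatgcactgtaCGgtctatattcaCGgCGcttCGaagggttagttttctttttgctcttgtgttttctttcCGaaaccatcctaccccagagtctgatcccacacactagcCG

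In the choosing embryos the median region had a level of 0.731% (interquartile range 0.591 to 1.21%), and 17132 regions (69.2%) were below 1%. The number of regions fell steeply over the range of the rule, with 1493 (6.03%) at 5% or above and 232 between 9% and 10%. 8 regions had no methylated read at all. Of 697151 CpGs inside the regions that were covered in all 4 embryos, 98.7% were below 10% and 913 were at 50% or above. The latter lay in 617 regions. The mitochondrial genome, which is commonly used as an unmethylated reference for conversion, read 0.472 to 1.09% over the 36 libraries, so levels near or below 1% cannot be told from incomplete conversion.

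The regions were mostly promoters: 84.4% lay within 1 kb of an annotated start site, against 21.9% of the other qualifying regions. A further 4.43% touched an exon, 3.93% lay in introns and 7.22% between genes. The regions covered a promoter of 11933 protein-coding genes, 89.6% of the 13313 such genes with any qualifying promoter region. They held a median of 49 CpGs per kb against 20, a GC content of 56.9% against 49.4%, and an observed over expected CpG ratio of 0.641 against 0.333. The letters GGGCGG, the GC box bound by SP1, were found on either strand in 77.4% of the regions and in 26.6% of the others. TATAAA was found in 24.1% against 36.15% and CCAAT in 65.2% against 70.7%. GC content also differed between the sets, as given above, and its part in these shares was not tested.

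Neighbouring regions often met the rule together. The regions formed 15538 runs, of which 8365 were single regions, 6783 held 2 to 3 and 390 held 4 or more. The longest run, of 10 regions, lay over Zfp503, a developmental zinc finger repressor, at chr14:21981001-21991000. Runs of 9 lay over Gata3, Otx1 and Ebf2, and runs of 8 over Prdm12, Lhx5, Sall1 and Isl2. These genes encode developmental transcription factors or chromatin regulators. The mean level of these 8 runs was between 0.933 and 1.69%.

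At the threshold, the members just inside lay at Pcsk1, Slc37a1 and Spint2, each at 9.98% when rounded, and the regions just outside at Smarcal1, Rpl3 and Gm23935, each at 10.0%. These values only describe where the line fell.

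The labels were checked at Tet1 in a search that left out 3 libraries already in doubt. Of 109 CpGs inside Tet1 with reads in every KO and WT library searched, the CpG with the largest KO against WT difference lay at chr10:62884019. It read 69.57 to 100% in 15 KO libraries, 0 to 7.32% in 7 WT libraries and 8.33 to 69.2% in the 11 HET libraries, which were not used in the search. The library labelled KO replicate 1 of 30 ppm read 45%. Levels of 36.36% and 40% were read where labels gave WT, in replicate 2 of 30 ppm and replicate 2 of 0.1 ppm. These 3 values, from libraries also left out of the search, rest on 20, 33 and 15 reads at this CpG. They lay outside the range of the other libraries with the same label. The search picked the CpG that best parted those other KO and WT libraries, so the gap between their ranges partly follows from it. The 3 are called libraries against their label below but were kept under it. In the mean over the unmethylated regions, WT replicate 2 of 0.1 ppm read 1.66%, within the range of the other WT embryos. The sample list of the study gives both libraries labelled WT here as WT. It gives the embryo labelled KO here as HET, while the deposited labels, which set the groups, call it KO. That library is therefore part of every KO value on 30 ppm, and lowest KO values below are given again without it where it set them. Libraries held 23.2 to 197 M CpG calls and measured 24108 to 24768 of the regions.

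Most regions stayed unmethylated in every group, and KO embryos had higher levels than HET embryos. The mean level over the regions had a lowest value of 1.71%, a median of 1.80% and a highest of 1.86% in the 10 HET embryos. In the 16 KO embryos these were 1.82%, 3.29% and 3.74%. The lowest KO value was that of the library labelled KO replicate 1 of 30 ppm, and the other 15 KO embryos lay above every HET embryo. The difference over all diets was 1.39 points, 1.501 points without that library and 0.750 points with reads pooled over the regions, which gives deeply covered regions more weight.

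The 5 WT embryos of the 30 and 0.1 ppm diets ranged from 1.49 to 2.30% with a median of 1.66%. The highest was the library labelled WT replicate 2 of 30 ppm. KO exceeded WT on these diets by 1.43 points, by 0.759 points with reads pooled, and by 1.72 points without the 3 libraries against their label. The 4 choosing embryos lay between 1.41 and 1.77%. No p is given for these means, which run over regions chosen with earlier results known.

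**Figure D1:**
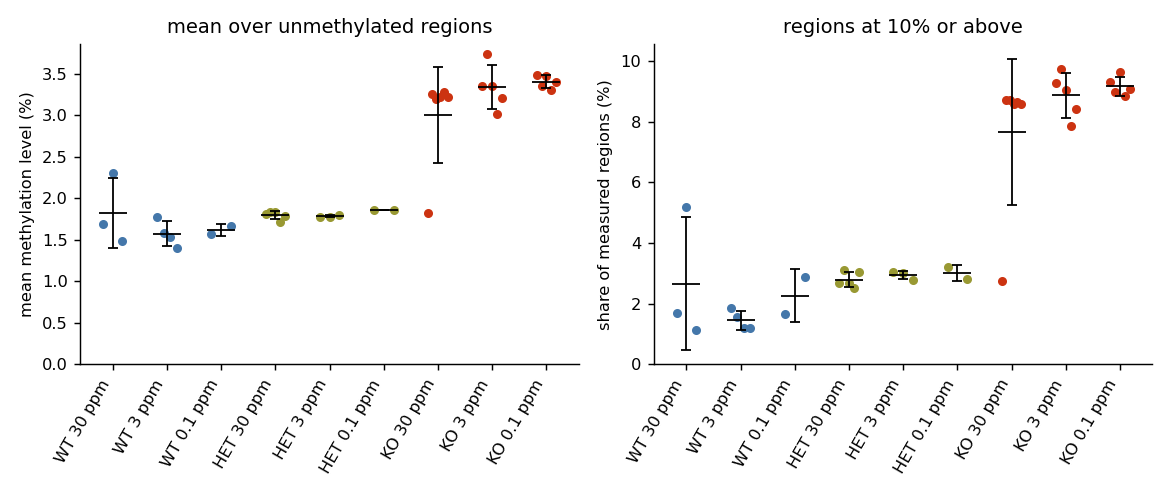
Mean methylation level over the unmethylated regions (left, %) and share of measured regions at 10% or above (right, %) for each embryo, by genotype and diet, with the group mean and SD as bars. Of 16 KO embryos, 15 lie above all HET embryos in both panels, and the remaining one, labelled KO on 30 ppm, lies among them at 1.82%.

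The median region differed by little between the genotypes. The median level per embryo was 0.719 to 0.903% in HET and 0.833 to 1.29% in KO embryos, or 0.891 to 1.29% without the KO library against its label. The mitochondrial level averaged 0.737% ± 0.0821 (SD, n = 10) in HET and 0.709% ± 0.127 (n = 16) in KO. In regions with more than 80 CpGs the mean was 0.842% ± 0.0503 in HET and 1.198% ± 0.128 in KO. In regions at 5 to 10% in the choosing embryos it was 9.34% ± 0.258 in HET and 17.8% ± 2.40 in KO, or 18.4% ± 0.639 without the KO library against its label.

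With reads pooled per group and the rule's own coverage, 471 of 24326 measured regions (1.94%) reached 10% or above in HET embryos on 30 ppm, 541 of 24172 (2.24%) on 3 ppm and 619 of 24561 (2.52%) on 0.1 ppm. In KO embryos these were 1516 of 23700 (6.40%), 1713 of 23203 (7.38%) and 1825 of 23591 (7.74%). WT embryos had 353 of 23781 (1.48%) on 30 ppm and 378 of 24164 (1.56%) on 0.1 ppm. Regions at 30% or above numbered 106, 245 and 237 in KO on 30, 3 and 0.1 ppm, at most 6 in any HET group and 0 in WT. Without the libraries against their label KO on 30 ppm had 1733 of 23746 regions (7.30%) at 10% or above and 195 at 30% or above, and WT had 169 of 23804 (0.70997%) and 1 on 30 ppm and 402 of 24612 (1.63%) and 5 on 0.1 ppm.

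Each region was then tested between KO and HET over all diets, with diet as a covariate, in a quasi-binomial model fitted to all 80061 autosomal regions of the 26 embryos. Calls needed both an adjusted p under 0.05 and 10 points or more between the means. Of 23141 unmethylated regions tested, 753 (3.25%) were called higher in KO and 0 lower, against 5.81% called higher of all regions. Regions chosen for low levels leave little room for a fall of 10 points, so the lack of lower calls was largely set by the rule. The called regions had a median difference of 15.1 points, with 200 at 20 points or more and 49 at 30 or more, and they lay nearest to 696 genes. Limma p-values, used with the same differences and 10-point minimum, also called 753, among which 0 were lower. Only 753 regions reached 10 points, so limma could not have called more. Without the KO library against its label 829 were called, against 6.64% of all regions.

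The share called in these regions was below that of regions with intermediate WT levels. It was 45.56% of 1982 regions at 10 to 30%, 32.1% of 4187 at 30 to 70% and 0.412% of 21825 at 70% or above. The difference between these shares was not tested.

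Smaller gains were more common. At an adjusted p under 0.05 without a minimum size, 5689 of the regions (24.6%) were higher and 23 lower in KO, against 19.4% and 0.104% of all regions. The median difference over the regions was 0.182 points, against 0.799 points over all regions tested.

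KO against WT on 30 and 0.1 ppm gave a like count. Of 23377 unmethylated regions tested in 16 embryos, 774 were called higher and 0 lower, against 8.24% called higher of all 82422 regions. Low starting levels again left little room for lower calls. At any size 4273 were higher and 21 lower, against 18.6% and 0.0764% of all. The count was 1030 (4.39% of those tested) without the 3 libraries against their label, against 12.9% of all regions. It was 484 (2.03%) on 30 ppm alone, against 3.53% of all, and 1039 (4.34%) on 0.1 ppm alone, against 7.41%. The 30 ppm count includes both a KO and a WT library against their label. KO embryos enter both comparisons, so the counts are not independent.

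The level at the 753 regions shows where WT embryos, which had no part in calling them, stood. The mean over these regions was 5.57 to 13.1% with a median of 5.80% in the 5 WT embryos of 30 and 0.1 ppm. It was 7.53 to 8.43% with a median of 8.12% in HET, and 7.88 to 27.5% with a median of 26.1% in KO embryos. The lowest KO value was again the library labelled KO replicate 1 of 30 ppm, inside the HET range. The highest WT value came from a library against its label. Without such libraries KO embryos lay between 23.6 and 27.5% and the 3 WT embryos between 5.57 and 5.80%.

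The share called followed the level in the choosing embryos. None of 2402 regions below 0.5% was called, 8 of 14015 at 0.5 to 1%, 69 of 3355 at 1 to 2%, 284 of 2124 at 2 to 5% and 392 of 1245 at 5 to 10%. It also followed CpG density, with 9.64% called of the 1079 regions with at most 20 CpGs, 2.39% of those with 41 to 60 and 0.310% of the 4199 with more than 80. The median called region held 31 CpGs, and the median of the rest 52. Density and starting level moved together, with a median WT level of 1.71% at up to 20 CpGs and 0.653% above 80, and their parts in the result were not tested apart.

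By annotation, 12.5% of 986 exonic regions were called, 6.17% of 827 intronic, 6.17% of 1523 intergenic and 2.45% of 19805 promoter regions. By the position of the centre from the nearest protein-coding start, 1.48% were called up to 1 kb upstream, 1.90% up to 500 bases downstream, 3.801% from 500 to 1000 bases downstream 7.54% from 1 to 2 kb downstream and 8.29% further downstream, and 6.64% were called over 1 kb upstream. Regions flanked by members on both sides were called in 0.604% of 1987 cases, those with 1 such neighbour in 2.48% and those with none in 5.29%. The median WT level of these 3 classes was 0.692, 0.708 and 0.768%, and the differences between shares by annotation, position or neighbours were not tested.

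**Figure D2:**
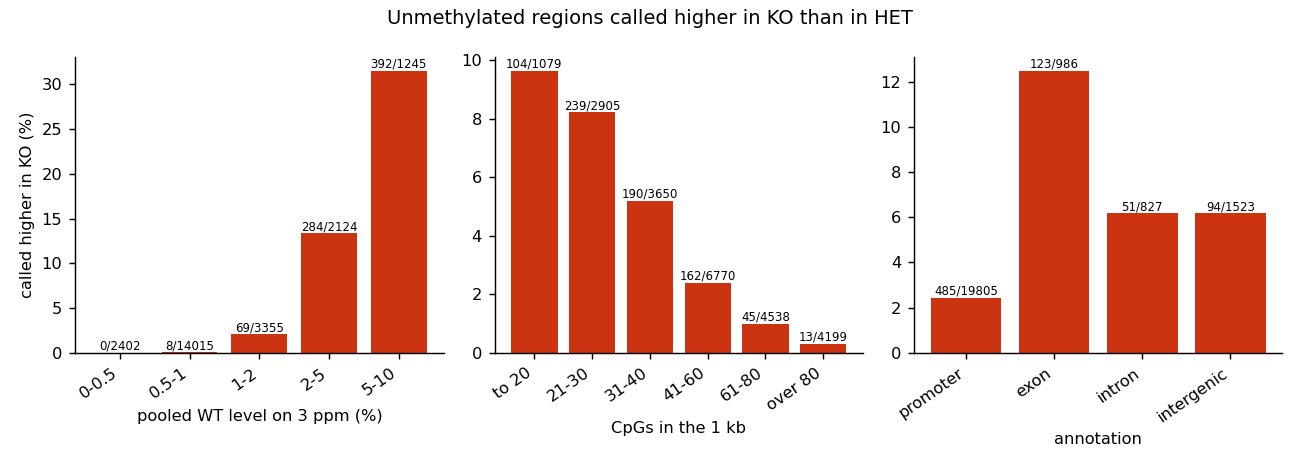
Share of unmethylated regions called higher in KO than in HET (%), by pooled WT level on 3 ppm, CpGs per kb and annotation, with called and tested counts above each bar. The share rises from 0 of 2402 to 392 of 1245 with the WT level and falls to 13 of 4199 at more than 80 CpGs.

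At single CpGs around start sites, KO and HET lay closest near the start and further apart downstream. Over 82091 CpGs in the 100 bases upstream of a start, the mean was 0.718% ± 0.0503 in HET (n = 10), 0.750% ± 0.0672 in WT of 30 and 0.1 ppm (n = 5) and 0.974% ± 0.109 in KO (n = 16). Between 900 and 1000 bases downstream, over 4102 CpGs, it was 2.14% ± 0.0688, 2.04% ± 0.369 and 4.15% ± 0.570. Between 1400 and 1500 bases downstream KO reached 4.94% ± 0.765 against 2.15% ± 0.0835 in HET. Upstream, at 900 to 1000 bases, KO was at 3.43% ± 0.424 and HET at 2.02% ± 0.104. At 1100 to 1200 bases upstream they were at 3.94% ± 0.452 and 2.27% ± 0.141, over 856 CpGs. At 1300 to 1400 bases upstream they were at 2.40% ± 0.290 and 1.45% ± 0.0851. At 1400 to 1500 bases upstream they were at 3.02% ± 0.432 and 1.58% ± 0.149, over 482 CpGs. The gap thus rose and fell on that side without a steady widening. Differences between bins were not tested.

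**Figure D3:**
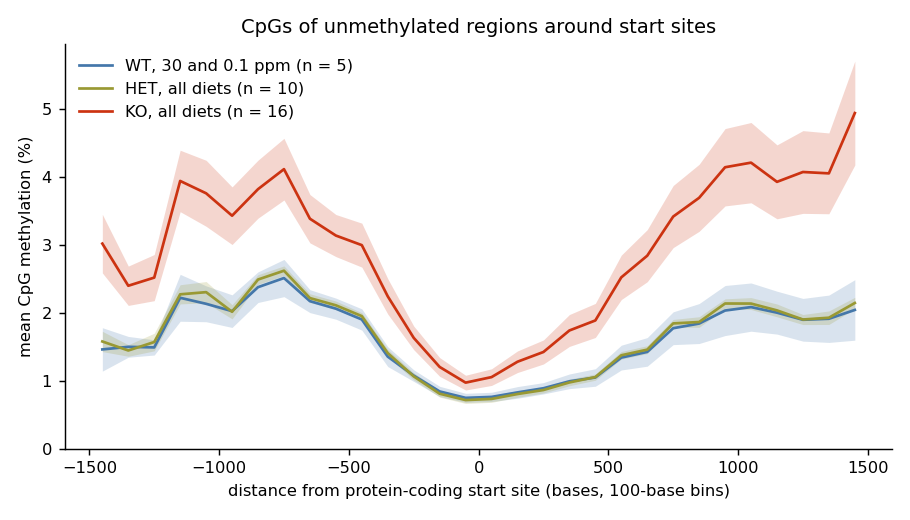
Mean methylation (%) of CpGs in unmethylated regions against the distance from the nearest protein-coding start site in 100-base bins, as the mean over embryos with SD bands. All genotypes are lowest at the start, where KO is at 0.974%, and the KO line lies furthest above HET at 1400 to 1500 bases downstream.

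Named regions were taken in order of difference from those called in which the KO embryos of each diet lay above every HET embryo of that diet. 102 of the 753 regions met this, 0.441% of the unmethylated regions tested against 0.462% of all regions. Without the library labelled KO replicate 1 of 30 ppm 663 did, 2.87% against 3.16% of all. At Gm47110 (chr9:67700001-67701000) levels over 8 CpGs were 6.81, 13.3 and 16.3% as lowest, median and highest in HET, and 17.4, 66.9 and 73.58% in KO. The groups did not overlap, and the lowest KO value was that same library, with the next at 56.7%. The difference was 49.9 ± 4.21 points (SE, quasi-binomial adjusted p = 1.4e-12).

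The region nearest to Troap (chr15:99084001-99085000) touched an exon, which need not be of that gene. There HET embryos read 13.2, 19.1 and 27.1% and KO embryos 25.6, 68.6 and 81.05%. The difference was 46.1 ± 4.16 points (quasi-binomial adjusted p = 1.9e-12). Without the library against its label the lowest KO embryo was at 61.1%. At E130201H02Rik (chr7:120597001-120598000), a processed pseudogene with the lowest starting level of the 10, HET embryos read 2.06, 4.04 and 5.99% and KO embryos 7.54, 44.1 and 52.7% over 24 CpGs, with a lowest value of 36.8% without that library. The difference was 37.0 ± 3.29 points (adjusted p = 1.9e-13).

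3 of the 10 lay at promoters of protein-coding genes. At Grin2d (chr7:45870001-45871000), which encodes a subunit of the NMDA glutamate receptor, HET embryos read 3.37, 9.27 and 14.4% and KO embryos 14.5, 43.3 and 68.9% over 4 CpGs, a difference of 34.47 ± 3.75 points. The lowest KO value was 32.5% without the library against its label. At Insyn1 (chr9:58490001-58491000), named for inhibitory synapses, HET embryos read 6.23, 7.98 and 12.5% and KO embryos 12.1, 45.2 and 58.0%, the lowest of which was again the library labelled KO replicate 1 of 30 ppm, with the next at 37.3%. At Tnfaip2 (chr12:111448001-111449000), a gene induced by tumour necrosis factor, HET embryos read 6.06, 14.6 and 28.1% and KO embryos 21.2, 55.3 and 69.3%, so the pooled groups overlapped although each diet's did not.

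The other 4 were Gm11532, Cystm1, B230208H11Rik and Gm48623, with differences of 44.2, 42.4, 40.0 and 32.6 points. Gm11532 rests on 3 CpGs in this comparison, and over 9 CpGs against WT its difference was 18.5 points. The largest difference of all, 50.9 ± 4.66 points, lay at the promoter of Tmem233 (chr5:116083001-116084000), which is named here after its values were seen because the library labelled KO replicate 1 kept it out of the rule.

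**Figure D4:**
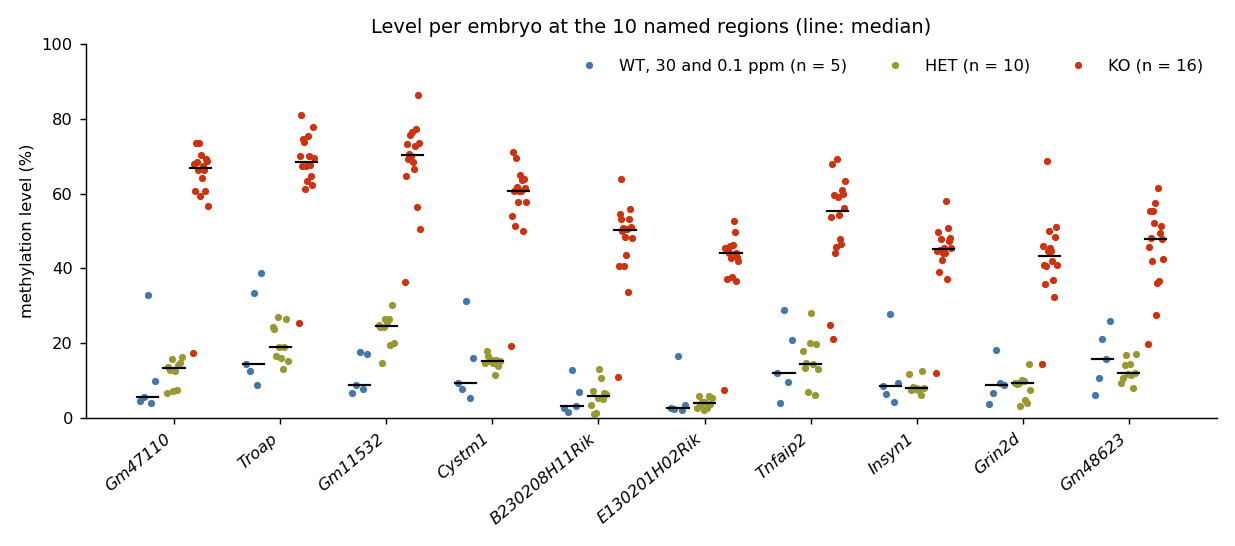
Methylation level (%) per embryo at the 10 named regions in WT (30 and 0.1 ppm), HET and KO embryos, with medians as lines. HET and KO levels use the CpGs of KO against HET, and WT levels those of KO against WT. At Gm11532 these are 3 and 9 CpGs, so its WT points cannot be set directly against its KO points. KO medians lie between 43.3% at Grin2d and 70.3% at Gm11532, and a lone KO point near the HET embryos recurs at most regions.

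KO against WT added 5 names by the same rule. At Cnga3 (chr1:37218001-37219000), a channel subunit of cone photoreceptors, the 5 WT embryos ranged from 9.20 to 18.02% and KO exceeded them by 36.61 ± 5.62 points (adjusted p = 1.0e-05). At Mpst (chr15:78410001-78411000), an enzyme of cysteine breakdown, WT ranged from 8.15 to 19.1% and the difference was 34.9 ± 4.79 points. Spaca1, a sperm acrosome gene, Otop3, a proton channel gene, and Gm15699 differed by 42.8, 30.0 and 29.1 points.

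Single CpGs rose together in some regions and unevenly in others. In Gm47110 each of the 8 CpGs shared by all embryos averaged 51.4 to 73.3% in KO and 8.53 to 17.8% in HET. In Troap each of 9 averaged 54.5 to 77.8% in KO and 7.89 to 28.1% in HET. The runs printed above for these genes hold these CpGs among others. In Aldh1l2, described below, KO averaged 71.4% and HET 25.2% at the CpG 63 bases downstream of the start. They averaged 3.28 and 0.115% at -554 bases from the start, and at -591 bases HET was the higher, at 1.98% against 1.36%. The Aldh1l2 run printed above covers upstream CpGs, which differed less than the CpG 63 bases downstream. Within that run KO was highest at -504 bases, at 18.8% against 1.66% in HET.

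**Figure D5:**
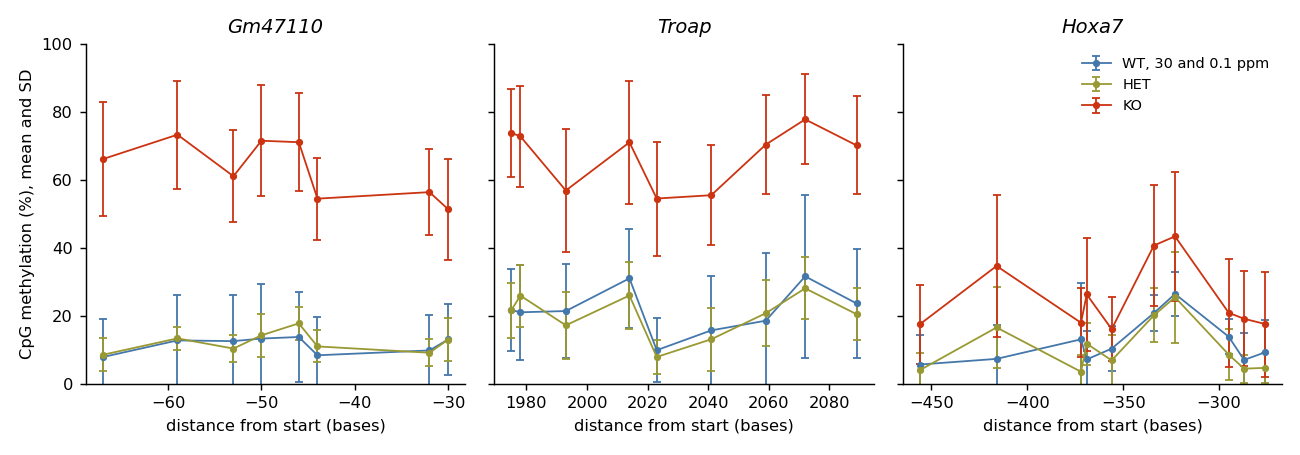
Methylation (%) of single CpGs, as mean and SD over embryos, against the distance from the start of Gm47110, Troap and Hoxa7. KO lies above HET at each CpG shown, by a wide gap in Gm47110 and Troap and with overlapping SDs in Hoxa7.

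The most deeply covered regions did not follow this pattern. The 5 regions with the most reads lay close together in the ribosomal RNA gene copy on chromosome 17, at 7.53 to 8.61% in the choosing embryos. At the deepest (chr17:39845001-39846000) HET embryos read 4.32, 9.09 and 13.5% and KO embryos 4.24, 8.84 and 16.7% on 29457 to 51886 reads per embryo. The groups overlapped over their whole range, and the difference was -0.0833 ± 1.17 points (adjusted p = 0.96). Reads of the many genomic copies of this gene cannot be told apart, so these values are means over copies.

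Gene lists put the regions in their roles. Their counts stand beside 3.25% called of all unmethylated regions tested and 5.81% of all regions. All 43 neural progenitor and patterning factors, such as Sox1 and Sox2, had a member at their promoter, with 142 regions at a median of 0.690%. None of 137 tested was called in KO against HET, and 10 (7.30%) were higher at an adjusted p under 0.05 of any size, against 24.6% of the unmethylated regions. Among unmethylated regions at 0.5 to 1% in the choosing embryos, 0.0571% were called and 12.8% were higher at any size. The part of the starting level in the list counts was not tested. They had a median difference of 0.0768 points, against 0.182 over the unmethylated regions and 0.799 over all regions. The lowest of these, at Zic1, read 0 to 1.61% in HET and 0 to 1.90% in KO embryos, and the highest, at Hes3, a repressor of neural differentiation, 5.99 to 17.3% and 7.41 to 28.6%. Housekeeping genes gave 25 of 28 genes with a member and 0 of 41 regions called, and the DNA methylation machinery 19 of 20 and 0 of 40, each with 3 higher at any size.

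All 39 Hox genes had members, 101 regions at a median of 0.965%. Of 98 tested, 1 was called, at Hoxa7 (chr6:52220001-52221000), with 5.15, 11.04 and 14.7% in HET and 9.65, 25.01 and 48.6% in KO, a difference of 14.3 ± 3.23 points (adjusted p = 9.6e-06). On 3 ppm alone that difference was 7.71 points and was not called. At any size 28 of the 98 (28.6%) were higher in KO at an adjusted p under 0.05, near the 24.6% of all unmethylated regions. Without the library against its label the lowest KO value at Hoxa7 was 12.0%. The lowest Hox region lay at Hoxd3, at 0 to 1.74% in both HET and KO embryos.

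The one-carbon and folate genes, which supply methyl groups and whose dietary input was varied here, had members at 21 of 25 measured genes. Of 31 regions tested 2 (6.45%) were called, near the 5.81% of all regions. At Aldh1l2 (chr10:83533001-83534000) levels were 3.13, 4.25 and 6.80% in HET and 4.68, 25.2 and 35.1% in KO, a difference of 19.2 ± 2.32 points (adjusted p = 1.8e-11), and the lowest KO value was 16.5% without the library against its label. At Mthfd2 (chr6:83316001-83317000), an enzyme of mitochondrial folate metabolism, they were 3.61, 11.7 and 16% and 14.3, 24.4 and 35.19%, a difference of 11.8 ± 1.92 points over 5 CpGs, and of 5.96 points on 30 ppm alone. Without the library against its label the lowest KO value was 16.9%, above every HET embryo. This region lies 553 bases from the Mthfd2 start, and the start of another annotated transcript lies inside it. Slc19a1, the reduced folate carrier, had no member. The 2 qualifying regions within 1 kb of any of its annotated starts were at 94.9 and 96.7% in the choosing embryos. Whether they hold its main promoter was not checked, and regions without enough covered CpGs are not seen here.

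Mesoderm and muscle genes had members at 21 of 26 genes. Of 54 regions 11 (20.4%) were higher at an adjusted p under 0.05 of any size, and 1 (1.85%) was called. It lay at Myod1 (chr7:46376001-46377000), the master factor of skeletal muscle, with 6.495, 9.15 and 12.0% in HET, 7.73, 23.9 and 32.3% in KO (lowest 19.9% without the library against its label) and a difference of 14.1 ± 1.60 points (adjusted p = 4.7e-11). Its neighbour in role Myog had no member and read 81.2%. Of the blood, endothelial and microglial genes, 6 of 8 measured had members and 0 of 12 regions were called, with Kdr, a receptor of endothelial cells, at 0.219 to 0.812% in HET and 0.153 to 1.13% in KO (lowest 0.229% without the library against its label). At any size 4 of the 12 (33.3%) were higher at an adjusted p under 0.05, against 24.6% of the unmethylated regions. The highest, at Flt1, another such receptor, read 3.21, 5.34 and 7.92% in HET and 6.11, 10.2 and 15.02% in KO (lowest 8% without the library against its label), a difference of 5.07 ± 0.752 points (adjusted p = 1.0e-06).

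Few germline genes on the list had members, which the levels of the choosing embryos set and which was not tested. A member lay at 3 of 24 measured genes, Brdt and Dazl among them, against 89.6% of all protein-coding genes with a qualifying promoter region. Among these, 0 of 3 germline regions were called. The others lay above the threshold, between 15.03% at Piwil1 and 96.7% at Rpl10l. Promoter levels do not measure expression, and in whole tissue a level is a mean over cell types.

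HET against WT gave no calls while all labels were kept. On 30 and 0.1 ppm 0 of 23814 regions were called, against 0% of all 90865 regions, and 1148 had an unadjusted p under 0.05, of which 0 reached 10 points. Limma could not have called any, since it kept the same minimum and 0 regions reached 10 points. Without the 3 libraries against their label 3 (0.0125%) were called higher, against 669 (0.715%) of all regions. The median difference was -0.0308 points, against 0.260 over all regions. In the mean over the 753 regions above, each HET embryo (7.53 to 8.43%) lay above the 3 WT embryos of these diets whose labels held (5.57 to 5.80%). In regions at 5 to 10% in the choosing embryos the HET means were 8.98 to 9.83% and those of these 3 WT embryos 6.87 to 7.75%, while the WT libraries against their label read 11.9% on 30 ppm, above every HET embryo, and 9.38% on 0.1 ppm, inside the HET range. They read 13.1 and 8.42% at the 753 regions, so the separation of HET from WT appears only without them. Both also lay inside the HET range at the Tet1 CpG, so leaving them out can by itself part HET from WT. The 3 calls and this separation are therefore descriptions, and only 1 of the 3 remaining WT embryos was on 0.1 ppm.

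No region was called between diets in HET and KO embryos. Diets were not compared in WT embryos, since those of the 3 ppm diet chose the regions. For 30 against 3 ppm in HET and KO embryos, with genotype as covariate, 0 of 23392 regions were called, against 0% of all, and 5 that differed by 10 points or more passed 0.05 before adjustment. For 0.1 against 3 ppm it was 0 of 23335, against 0.00119% called higher of all, with 2. Limma called 0 in each. Mean levels in KO were 3.00% ± 0.577 on 30 ppm (SD over 6 embryos, or 3.23% ± 0.0325 over 5 without the library against its label), 3.33% ± 0.265 on 3 ppm (5 embryos) and 3.40% ± 0.0773 on 0.1 ppm (5 embryos). Embryos entered these fits singly, and a fit that takes the litters within each diet into account was not run.

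Whether the KO against HET difference itself depended on diet was tested by interaction. The quasi-binomial model called 0 of 23392 regions for 30 against 3 ppm and 0 of 23335 for 0.1 against 3 ppm, against 0% of all regions in each, and limma called 0. At an unadjusted p under 0.05 and 10 points there were 28 and 22. On single diets, KO against HET called 647 regions (2.69%) on 30 ppm, 881 (3.72%) on 3 ppm and 932 (3.87%) on 0.1 ppm, from 11, 8 and 7 embryos, against 3.15, 5.19 and 4.32% of all regions. The 30 ppm count includes the KO library against its label, and without it 907 regions (3.77%) were called on that diet, against 6.41% of all.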

How the data were processed

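Brain DNA of 36 embryos was profiled by oxidative bisulfite RRBS. Per the labels, reads were processed with Trim Galore 0.6.10, UMI-tools, Bismark 0.24.1 and methylKit 1.26.0 on mm10. The authors deposited, for each CpG, the methylation level as a fraction and the number of reads as a count, and the fraction multiplied by the count was whole throughout. The deposited lists of differentially methylated regions hold the authors' own comparisons and were not used. How strands were joined is not given in the sources used here.

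Positions were counted from 1, and all 3493603 autosomal positions listed were CpGs of GRCm38.p6. Genes came from GENCODE vM21, by the nearest start site, with promoters within 1 kb. For the gene lists the nearest protein-coding start site was used. Exons and introns were those of any gene. Levels are methylated over all reads at CpGs covered at least 5 times, with at least 3 CpGs per 1 kb region in tests. Methylated and unmethylated reads were fitted per autosomal region by a quasi-binomial logistic model (numpy 2.4.6, scipy 1.17.1) with diet or genotype as covariate. Dispersions were moderated as in limma and held at 1 or above, p-values were two-sided, and Benjamini-Hochberg adjustment ran over all regions tested. Differences and their SE are from ordinary least squares on levels. Limma 3.58.1 on log2 ratios with 0.5 added to each count was an alternative for the p-values. It kept the same differences and minimum difference. The model was tested on simulated data.

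The regions, gene lists and named-gene rule were chosen with earlier results of these data known. Named were the 10 largest KO against HET gains without overlap on each diet, up to 5 more for KO against WT, the regions next to the threshold, the 5 deepest, and for each list the called and the extreme promoter regions. Embryos are single animals, some of them littermates. Mitochondrial levels and the number of reads limit precision near 0%: the median region had 339 to 859 reads per embryo in KO against HET.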

Additional observations from a re-analysis of the deposited data

Results flagged for a closer look

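In groups of 4 to 10 embryos, the mean level over the unmethylated regions and the levels at the 10 named regions were searched for an embryo far from its group by Dixon's ratio at the 95% level. Of 45 sets of values, 6 held such an embryo. The sets reuse the same embryos at regions picked for large KO gains. They are therefore not independent, and no number expected by chance is given. 5 of the 6 were the library labelled KO replicate 1 of 30 ppm, whose Tet1 level also went against its label.

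Its mean level over the regions was 1.82%, with the next KO embryo of that diet at 3.20%. It read 17.4% at Gm47110, 25.6% at Troap, 7.54% at E130201H02Rik and 12.1% at Insyn1, each below the other 5 KO embryos of the diet by more than those differed among themselves. The remaining value was KO replicate 5 of 3 ppm at Gm11532, at 50.6% with the next embryo at 70.0%, over 3 CpGs.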

How the results depend on the processing

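Both mean differences stayed positive under every alternative run for them. With a minimum difference of 5, 20 and 0 points, KO against HET called 1649, 200 and 5712 regions and KO against WT 1659, 184 and 4294. At 5 and 20 points 9583 and 1115 of all 80061 regions were higher in KO than in HET, and 11492 and 1743 of all 82422 higher than in WT. At 0 points, a setting chosen after seeing the data, 23 and 21 of these were lower in KO, and KO against WT without WT replicate 1 of 30 ppm called 1 lower. With a WT level below 5% the counts were 361 and 349, and with at least 10 CpGs in WT 456 and 457, both from fewer regions. KO against WT on 30 ppm alone called 484. KO against HET on 30 ppm alone called 907 without the library against its label, also chosen after seeing the data, and 647 with it. HET against WT called 3 without the 3 libraries against their label. The mean KO minus HET and KO minus WT levels over the regions were 0.750 and 0.759 points with reads pooled, and 0.963 and 0.970 points with a WT level below 5%. Leaving out each embryo in turn gave 739 to 829 regions for KO against HET and 693 to 889 for KO against WT. Of all regions, 4556 to 5324 and 5379 to 8202 were called higher in these fits. The other comparisons gave 0 of the unmethylated regions. Mean differences were 1.36 to 1.501 points for KO minus HET and 1.34 to 1.60 for KO minus WT. With litter as a replicate block, which pairs embryos of a litter, KO against HET called 735, KO against WT 733 and HET against WT 0. Of all regions, 4500 of 80061, 5744 of 82422 and 0 of 90865 were called higher in these fits. The diet comparisons were not run with litters taken into account. The 10 named regions stayed called in KO against HET in all 364 pairs of region and alternative setting that were measured. Their differences there were 12.8 to 56.2 points. These regions were picked for large differences, which makes staying above 10 points likely. Gm11532 against WT was not called on 30 ppm alone (7.94 points) or without KO replicate 3 of 0.1 ppm (7.85 points). The causes were not tested.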
